A study of Mus musculus with 4 samples.

Results

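Neutrophils carry their antimicrobial proteins in granules and find their targets through surface receptors, and 10 genes of these kinds were followed in the salivary glands (SGs) of Myd88-/- mice. They were Elane, Ctsg and Prtn3 (serine proteases of azurophil granules), Camp, Lcn2, Ngp and Mmp8 (proteins of secondary and tertiary granules), and Ly6g, Csf3r and Cxcr2 (surface molecules). A probe belonged to a gene when its gene name on the array equalled the symbol, which gave 11 probes for the 10 genes, among 22312 genes tested in all. Total RNA came from the submandibular and sublingual glands (SMGs and SLGs) of female C57/BL6 mice at 10 weeks of age, with 2 arrays labelled Myd88-null (Myd88-/-) and 2 labelled wild type (Myd88+/+). Per the methods, both genotypes were offspring of heterozygous parents, no agent was given, and the arrays are described there for SMGs, whereas the sample labels name both glands. The deletion is in the germ line, so it is present in neutrophils and in gland cells alike. MyD88 is the adaptor that passes signals from Toll-like receptors and receptors of the interleukin-1 family, and the study asked how its loss affects the innate defence of the mouth.

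Granules form in sequence while a neutrophil matures in the bone marrow. Azurophil granules are filled first, with proteases such as elastase, and secondary and tertiary granules follow with cathelicidin, lipocalin 2 and collagenase, so that the messages of many granule proteins are most abundant in marrow precursors and low in mature neutrophils of blood and tissue. Receptors such as Cxcr2 and Csf3r are made by the mature cell, and some granule proteins, Lcn2 among them, are also made by epithelium.

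The tissue label was borne out by its markers, since 14 of 14 genes of salivary gland epithelium were well above background on all 4 arrays. The arrays differed in sensitivity. The share of the 55681 probes well above background was 52.2% on the first and 68.4% on the second Myd88-/- array, and 74.2% on the first and 55.1% on the second Myd88+/+ array. The probe of Myd88 itself gave signals of 721 and 632 in Myd88-/- glands and 715 and 564 in Myd88+/+ glands. Whether this probe lies in the deleted part of the gene is not given in the sources used here, so it does not check the genotype labels. The marker lists of other cells were not even between genotypes. Of the B cell genes 8 of 8 tested were lower in Myd88-/- glands on both arrays, and of the skeletal muscle genes 9 of 9, beside 18.7% of all genes tested. Some of these genes entered the test through the Myd88+/+ arrays alone, which favours a lower value in Myd88-/- glands. Among those well above background on all 4 arrays, 6 of 6 B cell and 5 of 5 muscle genes had lower means. Their median log2 differences were -0.90 and -3.45, against -1.48 and -4.07 over all those tested. Summed over the list, in multiples of the 75th percentile of an array, the muscle genes reached 3.01 and 2.98 in Myd88-/- glands against 22.4 and 127 in Myd88+/+ glands. The macrophage list was at 90.3 and 73.2 against 83.5 and 66.2. The mast cell list was at 3.70 and 3.81 against 4.41 and 3.60, with Tpsab1, Ms4a2 and Fcer1a not well above background on any array, and in the list of eosinophils and basophils (3.21 and 4.42 against 4.45 and 3.46) the same held for Epx. Of the T cell genes 10 of 10 tested had lower means in Myd88-/- glands, 8 without overlap, beside 18.7% of all genes tested. Among T cell genes well above background on all 4 arrays, 6 of 6 had lower means. The red blood cell list was at 222 and 124 against 152 and 127. The part of these cell types in the results that follow was not tested.

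Some probes of these genes share sequence with probes of other names, and these stretches are shown because they bear on what the signals can be attributed to. The probe of Csf3r (NCBI37/mm9, chr4:125721478-125721537, plus strand) ends in 30 bases that belong to a short interspersed repeat of the mouse genome, the B1 element. They recur without a mismatch in the probe TC1653005 and with 4 or 5 mismatches in 4 more probes of the same strand, among 55681 compared. Capitals mark bases equal to those of the Csf3r probe.
Csf3r: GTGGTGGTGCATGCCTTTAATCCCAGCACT
TC1653005: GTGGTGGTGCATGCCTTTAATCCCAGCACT
C330006K01Rik: GTGGTGGcaCATGCCTTTcATCtCAGCACT
ENSMUST00000131716: GTGaTGGcaCATGCCTTTAATCCCAGCACg
Heatr3: aTGGTGGTGCAcaCCTTTAATCCCAGatCT
Mlxipl: aTGGTGaTGCAcaCCTTTAATCCCAGtACT

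The probe of Ly6g (chr15:74989023-74989082, plus strand) shares a run of 28 bases with the probe of a predicted pseudogene, Gm10238, which the array lists under a transcript name (chr15:75066100-75066159, minus strand). Capitals mark the shared run.
Ly6g: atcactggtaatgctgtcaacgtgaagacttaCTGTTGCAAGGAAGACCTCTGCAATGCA
ENSMUST00000089689: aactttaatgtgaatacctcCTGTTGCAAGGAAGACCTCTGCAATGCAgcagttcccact

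Camp is measured by a pair of probes on the minus strand of chromosome 9 (chr9:109749911-109749970 and chr9:109749901-109749950). Their sequences overlap over 50 bases and differ there at 2 positions. The second probe has 60 bases but is placed over only 50 bases of the genome. In the 30 bases shown, counted from 1 at the 5′ end, the differences are A6G and T10C, with the first probe's base written first and capitals at both positions.
Camp, first probe: cagccAgagTagtaggcctgccttggcctg
Camp, second probe: cagccGgagCagtaggcctgccttggcctg

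Between Myd88-/- and Myd88+/+ glands 0 of the 10 genes had an adjusted p under 0.05 by limma, beside 0% of all 22312 genes tested. At an unadjusted p under 0.05 the count was again 0 of the 6 neutrophil genes that could be tested, where 16.7% of all genes passed. The other 4 genes (Prtn3, Ngp, Mmp8 and Cxcr2) were well above background on only 1 array of each genotype and were not tested. The genotypes did not overlap for 3 of the 6 genes, Camp and Ly6g lying lower and Elane higher in Myd88-/- glands, beside 52.0% of all genes (18.7% lower, 33.2% higher). The median log2 difference of the 6 genes was -0.12, against 0.06 over all genes tested. In whole glands, a change in the number of neutrophils and a change in RNA per neutrophil cannot be told apart.

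**Figure D1:**
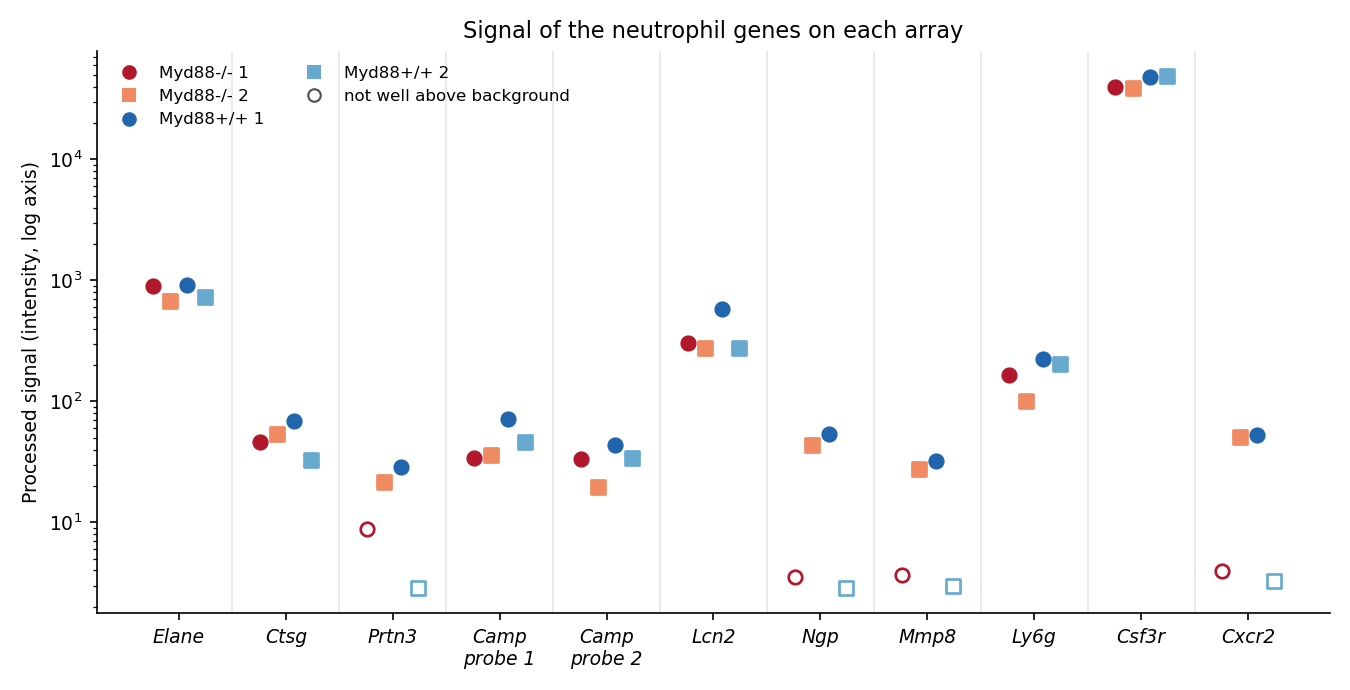
Processed signal (intensity, log axis) of the 11 probes of the 10 genes on each array, with circles for replicate 1, squares for replicate 2, red for Myd88-/- and blue for Myd88+/+. Open symbols are not well above background: Prtn3, Ngp, Mmp8 and Cxcr2 are open on the first Myd88-/- and the second Myd88+/+ array only.

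Elane, which encodes neutrophil elastase, was measured on chr10:79350902-79350961 (plus strand). Its processed signals were 899.6 and 682 in Myd88-/- glands and 909 and 731 in Myd88+/+ glands, well above background on all 4 arrays. Expressed as log2 relative to the 75th percentile of the array, these were 1.81 and 1.52 against 1.503 and 1.44. Both Myd88-/- arrays thus lay above both Myd88+/+ arrays on the scaled values, while the unscaled signals of the genotypes overlapped. The log2 difference was 0.20 (SE 0.14, 95% interval -0.21 to 0.60, adjusted p = 0.550 in limma), and it was 0.05 without the first Myd88-/- array and 0.34 without the second. The probe of Cfd, a gene for complement factor D that lies 4340 bases from the Elane probe, gave a log2 difference of -0.65.

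Ctsg encodes cathepsin G, another azurophil protease (chr14:56718795-56718854, minus strand). Its signals were 46.1 and 53.4 in Myd88-/- glands against 69.2 and 32.5 in Myd88+/+ glands, or -2.48 and -2.15 against -2.21 and -3.05 on the scaled log2 values. The Myd88+/+ arrays held both the highest signal and the lowest, so the genotypes overlapped. The log2 difference was 0.32 (SE 0.34, 95% interval -0.66 to 1.29, adjusted p = 0.687 in limma), and it was -0.10 without the second Myd88+/+ array.

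Prtn3 encodes proteinase 3, whose gene neighbours Elane, with 6216 bases between the probes. Its 60-base probe is placed over 817 bases of chromosome 10 (chr10:79343869-79344685), so it spans an intron. The signals were 8.87 and 21.4 in Myd88-/- glands and 28.5 and 2.89 in Myd88+/+ glands. The second Myd88-/- array and the first Myd88+/+ array were well above background, and their scaled log2 values of -3.47 and -3.49 differed by 0.02.

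Among the proteins of secondary granules, Camp encodes the cathelicidin precursor, from which an antimicrobial peptide is cut. The first probe gave 34.1 and 36.0 in Myd88-/- glands and 71.6 and 46.0 in Myd88+/+ glands. On the scaled log2 values these were -2.91 and -2.72 against -2.16 and -2.55, both Myd88-/- arrays lying below both Myd88+/+ arrays. The log2 difference was -0.46 (SE 0.18, 95% interval -0.98 to 0.06), which is 1.37-fold lower, with an adjusted p of 0.337 in limma, the smallest among the 6 genes. It was -0.27 without the first Myd88+/+ array. The second probe, which differs at the positions shown above, gave 33.1 and 19.5 against 43.3 and 33.8. Its scaled log2 values were -2.95 and -3.60 in Myd88-/- glands and -2.89 and -2.99 in Myd88+/+ glands, so here the genotypes overlapped, with a log2 difference of -0.34.

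Lcn2 encodes lipocalin 2, which binds bacterial siderophores (chr2:32240199-32240258, minus strand). Its signals were 304 and 279 in Myd88-/- glands and 585 and 278 in Myd88+/+ glands. The first Myd88+/+ array stood above the other three, and the genotypes overlapped. The scaled log2 values were 0.25 and 0.23 against 0.87 and 0.04. The difference was -0.22 (SE 0.32, 95% interval -1.12 to 0.68, adjusted p = 0.768 in limma), and it was 0.19 without the first Myd88+/+ array.

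Ngp encodes neutrophilic granule protein, and its 60-base probe is placed over 549 bases (chr9:110324266-110324814). Its signals were 3.53 and 43.8 in Myd88-/- glands and 53.3 and 2.89 in Myd88+/+ glands. Mmp8, the gene of neutrophil collagenase (chr9:7568238-7568297, plus strand), gave 3.67 and 27.7 against 31.9 and 2.999. For both genes the second Myd88-/- array and the first Myd88+/+ array were well above background and the remaining arrays were not. Between these 2 arrays the scaled log2 value of Ngp was -2.44 against -2.59, and that of Mmp8 was -3.10 against -3.33. The genes Camp and Ngp lie on the same chromosome as Myd88, with 9.50 and 8.92 megabases between their probes and that of Myd88.

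Ly6g encodes a surface protein anchored by glycosylphosphatidylinositol that is widely used as a marker of mouse neutrophils. Its signals were 166 and 101 in Myd88-/- glands and 222 and 203 in Myd88+/+ glands. On the scaled log2 values these were -0.62 and -1.23 against -0.53 and -0.41, both Myd88-/- arrays lying below both Myd88+/+ arrays. The log2 difference was -0.46 (SE 0.25, 95% interval -1.16 to 0.24), or 1.38-fold lower, with an adjusted p of 0.433 in limma. It was -0.76 without the first Myd88-/- array and -0.16 without the second. The pseudogene probe that shares its 28 bases gave 198 and 133 in Myd88-/- glands and 262 and 186 in Myd88+/+ glands, a log2 difference of -0.19. Signals of the pair cannot be told apart over the shared run.

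Csf3r, the receptor of granulocyte colony-stimulating factor, had the brightest probe of the 10 genes. It gave 40063 and 39364 in Myd88-/- glands and 48078 and 48717 in Myd88+/+ glands. After scaling, the log2 values were 7.29 and 7.37 against 7.23 and 7.50, and the genotypes overlapped, whereas the unscaled signals of both Myd88-/- arrays lay below those of both Myd88+/+ arrays. The difference was -0.03 (SE 0.14, 95% interval -0.44 to 0.37, adjusted p = 0.931 in limma). Without the first Myd88-/- array it was 0.01, and without the second Myd88+/+ array it was 0.10.

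The probe TC1653005, which ends in the same 30 repeat bases, gave 50932 and 51847 in Myd88-/- glands and 56857 and 54643 in Myd88+/+ glands. The 4 probes with 4 or 5 mismatches ranged from 2358 to 9608. On the opposite strand, 8 probes that match the repeat with 2 to 5 mismatches ranged from 3.17 to 9188. How much of the Csf3r signal comes from its own transcript was not tested. Over the 4 arrays, the scaled values that moved most nearly like those of Csf3r were those of Cldn8, of an unnamed transcript and of Lpgat1, with a root mean square difference of 0.0033 log2 units for Cldn8. As 2761 of 20381 genes lay within 0.1 log2 units of it, this likeness over 4 arrays is a description only.

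**Figure D2:**
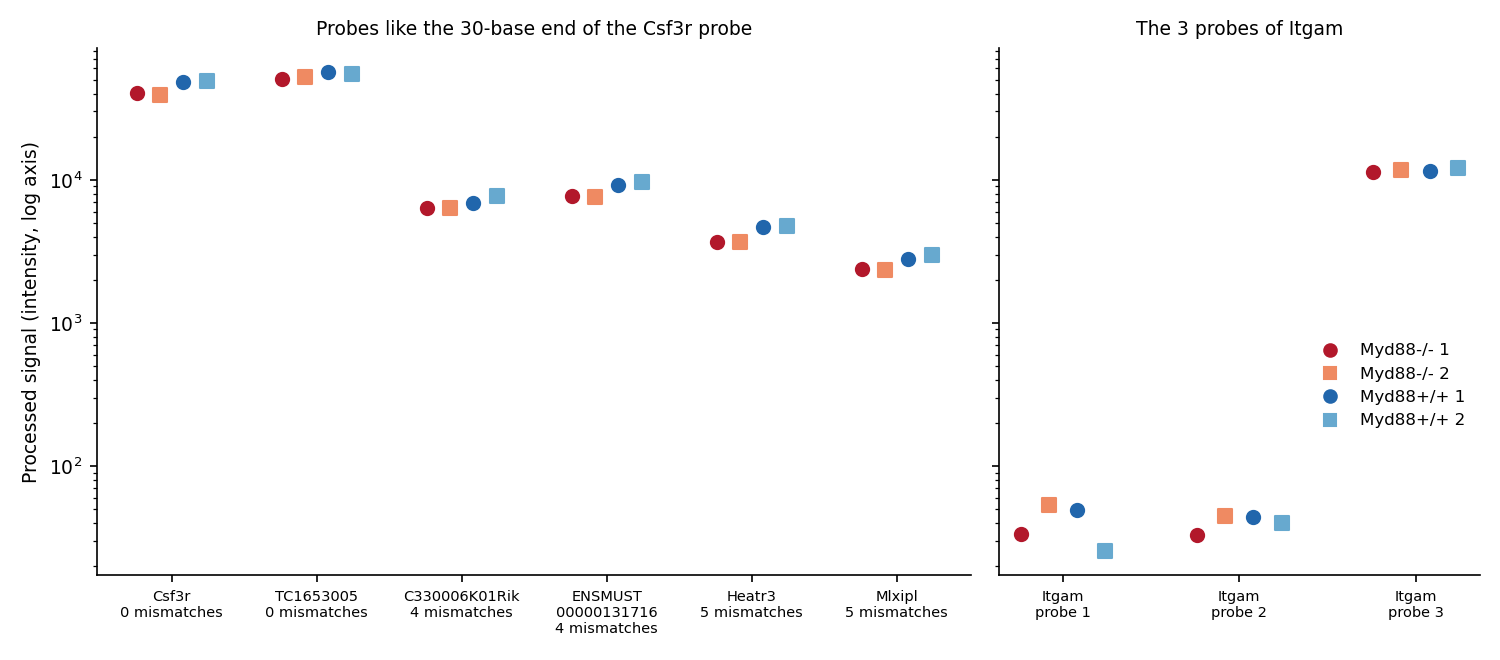
Processed signal (intensity, log axis) on each array of the Csf3r probe and the 5 probes of the same strand that resemble its 30-base end (left), and of the 3 probes of Itgam (right); colours and symbols stand for the 4 arrays. The probes without a mismatch lie between 39364 and 56857, those with 4 or 5 mismatches between 2358 and 9608, and 1 of the 3 Itgam probes lies far above the others.

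Cxcr2, the receptor through which neutrophils follow chemokines such as Cxcl1, was measured on chr1:74206886-74206945 (plus strand). Its signals were 3.97 and 50.7 in Myd88-/- glands and 52.4 and 3.27 in Myd88+/+ glands. Again the second Myd88-/- and the first Myd88+/+ array alone were well above background, with scaled log2 values of -2.23 and -2.62. Over the 10 genes, 6 were well above background on the first Myd88-/- array and on the second Myd88+/+ array, and 10 of 10 on the remaining pair. The 4 genes at issue were thus detected on the same pair of arrays, 1 of each genotype, that also had the larger shares of all probes well above background.

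**Figure D3:**
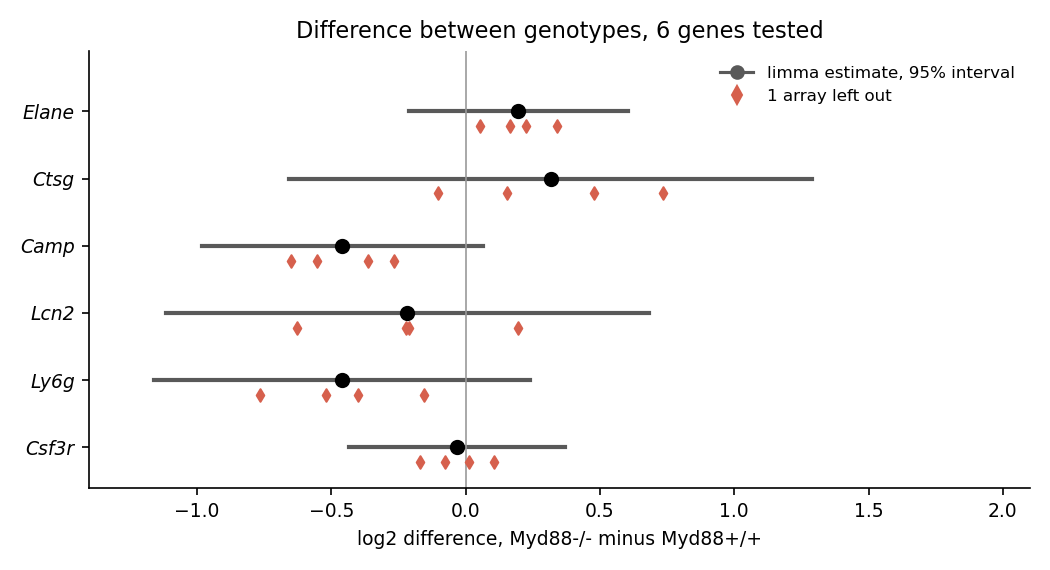
Log2 difference between Myd88-/- and Myd88+/+ glands of the 6 genes tested. Black points and bars are the limma estimate and its 95% interval (n = 2 arrays each), and red diamonds are the estimates with 1 array left out. Every interval includes 0, and the diamonds of Ctsg, Lcn2 and Csf3r lie on both sides of 0.

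Other genes of neutrophil biology were placed in 8 lists, of which 90 genes were on the array and 57 could be tested. None was called in limma after adjustment, while 3 had an unadjusted p under 0.05 and a higher value in Myd88-/- glands and 17 had one with a lower value. At the same cut 2190 of all 22312 genes tested were higher and 1525 lower. Some of the 57 genes, Mpo among them, entered the test through the arrays of a single genotype. In 37 of the 57 the genotypes did not overlap, beside 52.0% of all genes tested.

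Of the NADPH oxidase subunits, which make the oxidative burst, 6 of 6 lay lower in Myd88-/- glands without overlap, with a median log2 difference of -0.62 (5 of 6 lower after normexp background correction). Of all genes tested, 18.7% lay lower without overlap. Rac2, the small GTPase of the complex, had signals of 144 and 116 in Myd88-/- glands against 892 and 423 in Myd88+/+ glands (log2 difference -2.01, SE 0.33, adjusted p = 0.198 in limma). Ncf4, a cytosolic subunit, had 195 and 146 against 803 and 482 (log2 difference -1.63). These genes are also expressed by lymphocytes and macrophages. The summed B cell list stood at 10.7 and 11.1 in Myd88-/- glands against 28.1 and 20.4 in Myd88+/+ glands. The T cell list was at 15.1 and 14.4 against 30.1 and 22.8, and the macrophage list at 90.3 and 73.2 against 83.5 and 66.2. The part of these cells in the difference of the oxidase subunits was not tested.

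Of the other granule and cytosol proteins 12 were tested, with 1 higher and 4 lower at an unadjusted p under 0.05 in limma. In either direction, 16.7% of all genes passed this cut. The median log2 difference was -0.42, which was 0.11 without the first Myd88-/- array and -0.05 after normexp background correction. Among the 8 genes well above background on all 4 arrays it was -0.08, with 4 lower and 4 higher. S100a9, a subunit of calprotectin, gave 39.9 and 69.7 in Myd88-/- glands against 262 and 112 in Myd88+/+ glands (log2 difference -1.45, SE 0.50, adjusted p = 0.296 in limma). Arg1, which encodes arginase 1, gave 946 and 824 against 1670.0 and 1636 (log2 difference -0.65). Mpo, the gene of myeloperoxidase, was near background on both of its probes. The tested probe gave 34.8 and 20.6 in Myd88+/+ glands and was not well above background on either Myd88-/- array (7.03 and 9.81), so it entered the test through the Myd88+/+ arrays alone. The other probe was well above background only on the second Myd88-/- array (20.02) and the first Myd88+/+ array (17.4). Mmp9, Olfm4, Stfa1 and Stfa2l1 were not well above background on any array.

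Of the other surface receptors 12 were tested, with 0 higher and 4 lower at an unadjusted p under 0.05 in limma, a cut that 16.7% of all genes passed. The median log2 difference was 0.04, with 5 lower and 7 higher. Among the 10 genes well above background on all 4 arrays it was 0.14, with 3 lower and 7 higher. Over the 12 genes it was 0.14 without the first Myd88-/- array and 0.10 without the first Myd88+/+ array. Without the second Myd88-/- array it was -0.20, and without the second Myd88+/+ array -0.23. The percentile over detected probes gave -0.01 and median scaling -0.02. Csf2rb, the shared chain of the receptors for interleukin-3, interleukin-5 and granulocyte-macrophage colony-stimulating factor, had a log2 difference of -1.70 on the tested probe and of -0.29, with overlap, on a dimmer probe that was also well above background on all 4 arrays. Itgb2, the beta chain of the leukocyte integrins, had one of -0.87. Itgam, the alpha chain that pairs with Itgb2 on neutrophils, has 3 probes of which 2 gave signals from 25.4 to 53.2. The tested one gave 11420 and 11677 in Myd88-/- glands and 11442 and 12089 in Myd88+/+ glands, and it holds a run of 10 CA units where the other probes hold at most 2. Cxcr1, Fpr2, Trem3, Clec4e and Ccr1 were not well above background on any array.

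Of the ligands and growth factors only 4 could be tested, and Csf3, Csf2, Cxcl3, Cxcl15, Ppbp, Il17a and Il6 were not well above background on any array. Cxcl1, a ligand of Cxcr2, gave 47.4 and 45.0 in Myd88-/- glands against 43.4 and 26.1 in Myd88+/+ glands (log2 difference 0.71, SE 0.20, adjusted p = 0.251 in limma). Cxcl12, which retains neutrophils in the marrow through Cxcr4, had a log2 difference of -0.67 on the tested probe and -1.09 on a dimmer one. Among the transcription factors of granulopoiesis 5 were tested, with 2 lower at an unadjusted p under 0.05 in limma. Of all 22312 genes tested, 1525 were lower at this cut. Cebpb and Cebpa, which drive the making of granulocytes, had log2 differences of -0.48 and -0.42.

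Of the inhibitors of neutrophil serine proteases 7 were tested, with a median log2 difference of -0.21, which was 0.23 without the first Myd88+/+ array. Slpi, the secretory inhibitor of elastase and cathepsin G, gave 37.9 and 51.3 in Myd88-/- glands against 685 and 421 in Myd88+/+ glands (log2 difference -3.35, SE 0.28, adjusted p = 0.194 in limma). Serpina3n, which also inhibits these proteases, had a log2 difference of -0.22 with overlap. Of the Ly6 family 8 of 8 had lower means (6 of 8 after normexp background correction), with Ly6h at -0.74 and Ly6k at -0.67. In 6 the genotypes did not overlap, where 18.7% of all genes tested lay lower without overlap. Among the Ly6 genes well above background on all 4 arrays, 7 of 7 had lower means. Of the list of Lcn2 receptors and other lipocalins 3 were tested. Lcn12, another lipocalin, was at 0.51 (-0.36, with overlap, on a dimmer probe) and Slc22a17, a receptor of lipocalin 2, at 0.06.

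**Figure D4:**
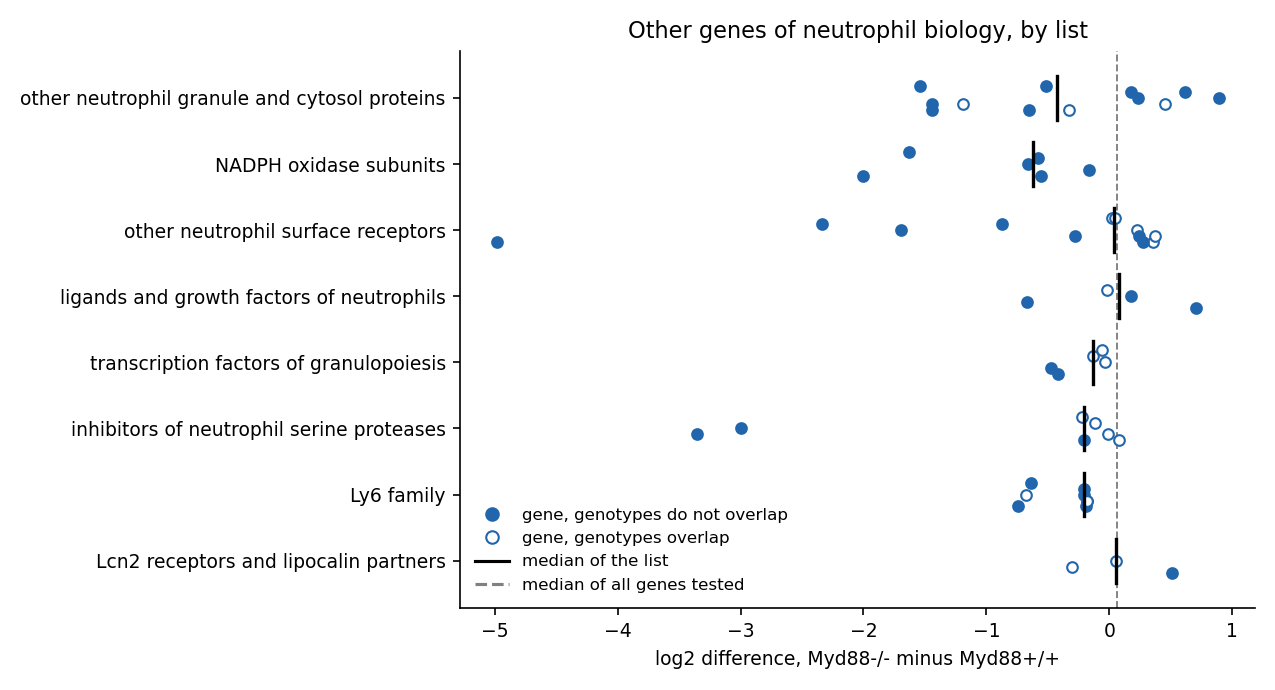
Log2 difference between Myd88-/- and Myd88+/+ glands of the 57 tested genes in the 8 other lists, 1 point for each gene, filled where the genotypes do not overlap. Black bars are list medians and the dashed line is the median of all genes tested, 0.06; all 6 NADPH oxidase subunits and all 8 Ly6 genes lie below 0, as 5 and 6 of them do after normexp background correction.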

How the data were processed

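Total RNA of 4 gland samples was hybridised to 1-colour Agilent arrays, and the authors deposited the intensity of each spot as read by Agilent Feature Extraction 10.7.3.1, with background subtracted and no scaling between arrays. Deposited files give probe positions on NCBI37/mm9. All 4 arrays lie on 1 slide, and no spot was saturated. A further table of 4 columns could not be matched to samples and was not used. Log2 intensities were set relative to the 75th percentile of the non-control spots of each array (237 to 321), spots marked as outliers were left out, and spots of a probe were averaged. Probes well above background (over 0.5 of their spots) on both arrays of a genotype were tested, the brightest standing for its gene, with limma 3.58.1 (lmFit, eBayes) in R 4.3.3 and Benjamini-Hochberg adjustment over 22312 genes. The fit was tested on simulated data. The 10 symbols matched the RefSeq table of GRCm38.p6, which was used for names only.

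The 10 genes and all lists were chosen with earlier results of these data known. All 10 genes are named with every probe, and of each other list up to 2 genes with the largest difference among those well above background on all 4 arrays, with Slpi and Myd88; Mpo, Itgam, Cfd and genes below background on every array were named after their values were seen. Genes most like Csf3r were ranked by root mean square difference. The study describes its arrays as made from more mice of each genotype than the arrays analysed here. The labels do not tie a sample to an animal or say whether RNA was pooled, so p-values may measure only the spread between these samples, which may be technical. An exact permutation test of 2 against 2 cannot go below 0.333. The number of arrays limits the precision. Other settings of the background correction, scaling, filter, choice of probe, moderation, test and arrays were tried, 14 in all, and 2 more were chosen after seeing the data.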

Additional observations from a re-analysis of the deposited data

How the results depend on the processing

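The number of neutrophil genes with an adjusted p under 0.05 was 0 in the main setting and in each of 16 alternatives, the methods' t-test included, with 0 to 0 when each array was left out in turn. The count over all genes was less stable. It was 0 in the main setting and in 12 alternatives, and 0 to 0 with 1 array left out, but 79 (34 higher, 45 lower) after normexp background correction, 482 (265 higher, 217 lower) with trended and robust moderation, 1 with the methods' t-test, and 402 (69 higher, 333 lower) with each array scaled to its median, an alternative chosen after seeing the data. With median scaling the smallest adjusted p was 1.08e-51, limma gave each of the 6 neutrophil genes the same SE of 0.54, and their adjusted p was 1.00; the cause was not tested. Among the other lists, Slpi was called after normexp, with trended and robust moderation and with median scaling, and Rac2 in the latter pair. At an unadjusted p under 0.05 the main setting had 2190 genes higher and 1525 lower. The split was 1755 and 1805 with the percentile taken over detected probes, 1700 and 1660 with quantile normalization, and 240 and 755 with median scaling. Without a filter on dim probes 34836 genes and all 10 neutrophil genes were tested, and the median difference of all genes was 0.12.

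Samples of the same number deviated oppositely from their group means (correlation -0.37). With 2 arrays of each genotype, samples of unlike number then correlate at 0.37 by construction. The arrays that deviated together also had the nearer shares of probes well above background. The correlation therefore cannot show whether the numbers pair samples. With the replicate number as a block 0 genes and 0 neutrophil genes passed, and 2410 genes had an unadjusted p under 0.05 against 3715 without it. With crossed pairs, added after seeing the data, the counts were 0, 0 and 4157. Over all alternatives the log2 difference ranged from 0.05 to 0.34 for Elane, -0.65 to -0.11 for Camp and -0.76 to -0.16 for Ly6g. With 1 array left out it ranged from -0.10 to 0.73 for Ctsg, -0.63 to 0.19 for Lcn2 and -0.17 to 0.10 for Csf3r. The sign turned for Csf3r (0.01 without Myd88-/- replicate 1, 0.10 without Myd88+/+ replicate 2), Lcn2 (0.19 without Myd88+/+ replicate 1) and Ctsg (-0.10 without Myd88+/+ replicate 2). Among the settings that kept all arrays, an unadjusted p under 0.05 appeared only for Camp with crossed pairs. It was 0.030 in limma there, with an adjusted p of 0.234. Without Myd88-/- replicate 1 the log2 difference of Ly6g was -0.76. Without Myd88+/+ replicate 2 the log2 difference was -0.65 for Camp and -0.63 for Lcn2. The slide could not be run as a block, as there is 1 slide.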
